A study of Homo sapiens with 8 samples.

Results

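Aminoacyl-tRNA synthetases, the enzymes that load each tRNA with its amino acid, were followed at the mRNA level in arginine-starved breast cancer cells. The set held 36 listed synthetase genes of the 23393 genes in the count table, namely 20 cytosolic genes and 16 mitochondrial genes whose symbols end in 2. All 36 passed the filter on low counts, as did 15262 genes in all. MDA-MB-231 is a mesenchymal, triple-negative breast cancer line that makes little argininosuccinate synthase and therefore depends on arginine from the medium. RNA-seq covered 4 groups of 2 libraries each, namely parental control cells, parental cells after 48 h of starvation, ρ0 control cells and ρ0 cells after 48 h of starvation. The labels describe arginine deiminase (ADI), an enzyme that breaks down arginine, at 0.3 µg/mL in the treated cells, whereas the methods of the study describe medium without arginine. The ρ0 cells were clone 27, a line without mitochondrial DNA that is kept in pyruvate, uridine and ethidium bromide, so every ρ0 value comes from 1 clone. Nothing in the labels says that the 2 libraries of a group came from separate cultures, and the p-values then measure only the spread between these libraries, which may be technical.

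Cells use a cytosolic set of synthetases for nuclear-encoded mRNAs and a mitochondrial set, also encoded in the nucleus and imported, for the few proteins encoded by mitochondrial DNA. Not every amino acid has a gene pair. GARS and KARS each encode the cytosolic and the mitochondrial enzyme for glycine and lysine, EPRS joins the glutamate and proline enzymes in 1 protein, and mitochondria make Gln-tRNA by amidation of Glu-tRNA, so that QARS has no mitochondrial counterpart. In amino acid deprivation, uncharged tRNA activates the kinase GCN2, and the transcription factor ATF4 is then translated and acts on many cytosolic synthetase genes through the C/EBP-ATF response element (CARE).

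That element is shown first because it marks a subset of the cytosolic genes. TGATGNAA, with TTNCATCA as its form on the other strand, was searched in the RefSeq promoter windows of GRCh38.p14, which reach from 250 bases before to 50 bases after a gene's start. Windows were found for 16 cytosolic and 14 mitochondrial members and missed DARS, LARS, VARS, YARS, AARS2 and VARS2. A match stood in 6 of 16 cytosolic windows (37.5%), in 1 of 14 mitochondrial windows (7.143%) and in 1270 of 35116 windows of all genes (3.617%). Each match is printed below in capitals within 30 bases of its gene's strand, 5′ to 3′.
AARS (chr16:70289675-70289704, minus strand): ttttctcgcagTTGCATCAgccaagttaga
CARS (chr11:3057407-3057436, minus strand): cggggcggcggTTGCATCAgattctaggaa
IARS (chr9:92293692-92293721, minus strand): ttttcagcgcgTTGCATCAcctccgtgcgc
MARS (chr12:57488053-57488082, plus strand): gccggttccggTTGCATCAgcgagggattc
NARS (chr18:57621804-57621833, minus strand): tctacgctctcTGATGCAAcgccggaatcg
TARS (chr5:33440956-33440985, plus strand): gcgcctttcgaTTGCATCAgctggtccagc
YARS2 (chr12:32756076-32756105, minus strand): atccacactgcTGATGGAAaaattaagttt
The 6 cytosolic matches read TGATGCAA or its other strand TTGCATCA, and the YARS2 match read TGATGGAA. In 5 of the 6 cytosolic genes the match lay near the start of the gene, with its first base at -2 in CARS, -13 in IARS, -4 in MARS, 15 in NARS and 3 in TARS, and in AARS it lay at -187. These letters are a description of the windows, and binding was not measured here.

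Library totals ran from 25259503 to 31022155 counts. Mesenchymal markers (VIM, CD44, AXL and CAV1) were abundant in all libraries and ESR1 and PGR were near 0, whereas CDH1, at 0 to 2 counts per library in parental cells, had 104 to 457 in ρ0 cells, and ASS1, at 1 to 10 counts in parental cells, had 183 to 684. Their part in differences between the lines was not tested. The 2 ρ0 control libraries stood apart from each other. Their biological coefficient of variation was 25.2%, against 5.18% for parental control, 2.25% for parental starved and 1.84% for ρ0 starved. Among the 36 members, the ρ0 control libraries differed by a median of 0.245 on the log2 scale, with 28 of 36 members higher in replicate 2 (range -0.30 to 0.91), against 0.055, 0.03 and 0.02 in the other groups in the same order. Results that rest on ρ0 control cells are therefore mostly given also without replicate 1 and without replicate 2 of these libraries, in that order. Leaving out either library narrows the shared estimate of the spread, and more of all tested genes were then called. Counts of called members in those fits therefore cannot be read against the shares of all tested genes given here. Levels are CPM, read counts scaled to the TMM-normalised library size, changes are log2 fold changes with their standard errors (SE), and a gene was called at an adjusted p under 0.05 in edgeR's quasi-likelihood test over 15262 genes. In bulk RNA, fewer cells that express a gene and less of its RNA per cell cannot be told apart.

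Cytosolic synthetase mRNAs of parental cells more often rose than fell on starvation. Of 20 cytosolic genes, 12 rose (60.0%) and 4 fell (20%), whereas 30.4% of all tested genes rose and 35.5% fell. The median change of the class was 0.50, against -0.07 over all tested genes. Without GARS and KARS, which also serve mitochondria, 10 of 18 rose and 4 fell, with a median of 0.43. The 12 higher genes became 8 with total-count scaling and 8 or 9 when a parental library was left out, and 15 without either ρ0 control library, with 2 to 4 genes lower in these fits. Scaling by total counts moved the median of all genes to -0.23 and left 12 of the 36 members higher and 8 lower (60.0% of calls higher), against 17 and 7 under the main scaling (70.8%).

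SARS, which charges serine tRNA, rose furthest. It was at 227 and 236 CPM in control and at 714 and 732 CPM in starved parental cells, a log2 change of 1.64 (SE 0.11, adjusted p = 1.8e-05). YARS, the tyrosine enzyme, went from 178.5 and 188 CPM to 525 and 534 CPM (1.53, SE 0.12, adjusted p = 3.2e-05). These were the only cytosolic genes that rose past the study's fold threshold of 1 on the log2 scale, SARS at 3.12-fold and YARS at 2.89-fold. TARS, for threonine, was at 343 CPM in both control libraries and at 626 and 662 CPM in both starved ones (0.91, SE 0.08, adjusted p = 6.6e-05). NARS, for asparagine, went from 134 and 131 CPM to 238 and 245 CPM (0.87, SE 0.08, adjusted p = 6.7e-05). AARS, for alanine, was at 182 and 186 CPM before and at 346 and 342 CPM after starvation (0.90, SE 0.09, adjusted p = 9.1e-05). In each of these genes both starved libraries lay above both controls, as they also did in FARSB and IARS, which were not called with all libraries. GARS rose to a like extent (0.90, SE 0.08), followed by KARS (0.65, SE 0.20), EPRS (0.57, SE 0.07), LARS (0.39, SE 0.12) and MARS (0.39, SE 0.09).

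Arginine is the amino acid that was withdrawn, and RARS is the enzyme that charges its cytosolic tRNA. RARS went from 117 and 123 CPM to 164 and 168 CPM in parental cells (0.47, SE 0.13, adjusted p = 0.013), a change of 1.39-fold that stood near the middle of the class. RARS2, its mitochondrial counterpart, was at 26.3 and 25 CPM in control and 26.1 and 26.6 CPM in starved cells, and the groups overlapped (0.04, SE 0.09, adjusted p = 0.73). FARSA, the alpha subunit of the phenylalanine enzyme, rose from 158 and 159 CPM to 275 and 283 CPM (0.82, SE 0.22, adjusted p = 0.011). FARSB, its beta subunit, was at 90.0 and 89.2 CPM in control and at 129.2 and 129.3 CPM in starved cells. It had a change of 0.53 with a SE of 0.24 and was not called (adjusted p = 0.091). That SE uses the spread of all 4 groups, and in this gene the ρ0 control libraries differed by 0.91 on the log2 scale. Without ρ0 control replicate 1 and 2 the change was 0.52 and 0.57. IARS (0.23), WARS (0.21) and CARS (-0.05), for isoleucine, tryptophan and cysteine, were not called in parental cells either.

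QARS, the glutamine enzyme, went furthest in the other direction among cytosolic genes. It had 5172 and 4579 reads in control and 593 and 736 reads in starved parental cells, which is 155 and 159 CPM against 23.5 and 26.1 CPM. The change was -2.66 (SE 0.11, adjusted p = 6.6e-06), or 6.33-fold lower. VARS, for valine, was at 453 and 480.1 CPM in control and at 263 and 254 CPM in starved cells (-0.85, SE 0.10, adjusted p = 0.00021). HARS, for histidine, fell from 87.4 and 93.7 CPM to 63.7 and 63.6 CPM (-0.51, SE 0.13, adjusted p = 0.011), and DARS, for aspartate, from 176 and 171 CPM to 139.7 and 142 CPM (-0.30, SE 0.08, adjusted p = 0.013). Control and starved libraries did not overlap in any of these 4 genes, although only 2 genes were called lower when either starved parental library was left out. A lack of overlap was also seen in genes that were not called, such as CARS and WARS2. HARS and HARS2 are read from opposite strands, their starts lie 85 bases apart and their exons share 402 bases. Without strand information the reads of HARS and HARS2 therefore cannot be fully separated. HARS2 was not called in either line with all libraries (-0.23 and 0.26), but its change in ρ0 cells was 0.05 without ρ0 control replicate 1 and 0.53 without replicate 2 (called), and in parental cells it was called lower without either (-0.23 and -0.19). Their promoter windows share the 184 bases of chr5:140691321-140691504.

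**Figure D1:**
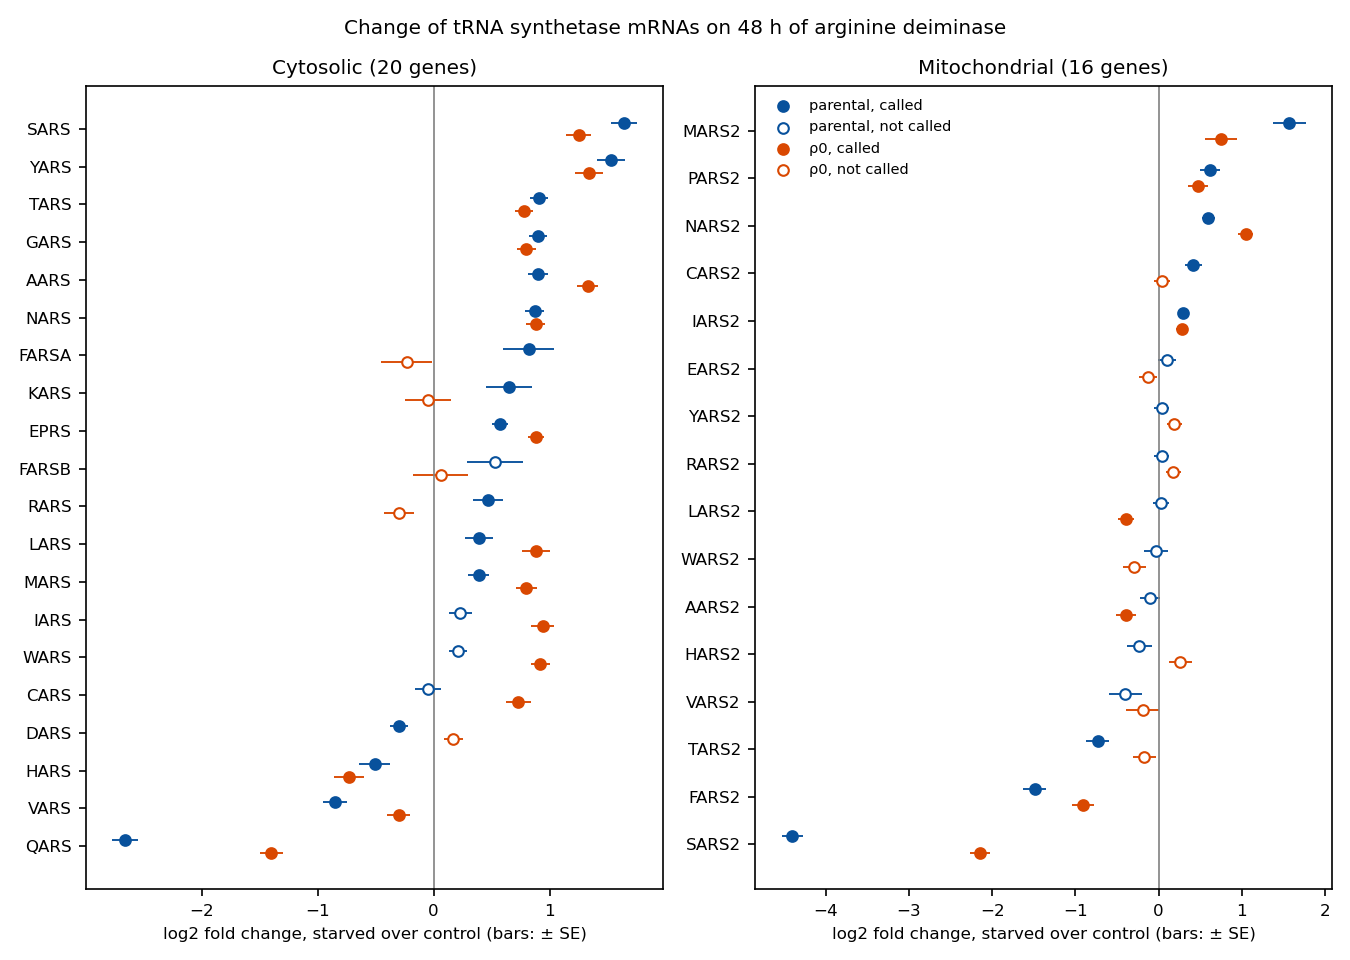
Log2 fold change on starvation (x axis) of the 20 cytosolic and 16 mitochondrial synthetase genes (rows, ordered by the change in parental cells), blue for parental and orange for ρ0 cells. Filled points were called at an adjusted p under 0.05 and bars are ± SE; SARS and YARS stand at the top and QARS at the bottom of the cytosolic panel, and SARS2 lies at -4.40 and -2.14 in the mitochondrial panel.

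Mitochondrial synthetases showed no such shared direction. Of 16 genes, 5 rose (31.2%) and 3 fell (18.8%) in parental cells, against the 30.4% and 35.5% of all tested genes, and the median change was 0.03. SARS2, the mitochondrial serine enzyme, had the largest change of the 36 members. It had 1196 and 1136 reads in control and 45 and 50 reads in starved parental cells, or 35.8 and 39.4 CPM against 1.78 and 1.77 CPM. The change was -4.40 (SE 0.13, adjusted p = 4.7e-06), which is 21.1-fold lower, in the cells in which its cytosolic counterpart SARS rose 3.12-fold. SARS2 shares 349 exon bases (15.76% of its exon bases) with MRPS12 on the opposite strand, a mitochondrial ribosomal protein gene that rose by 0.74 (SE 0.18, adjusted p = 0.0082). It also shares 1492 exon bases (67.36%) on its own strand with AC011455.2, a protein-coding gene that has no row in the count table. The part of either gene in the SARS2 reads was not tested.

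FARS2, the mitochondrial phenylalanine enzyme, fell from 11.1 and 12.6 CPM to 4.28 and 4.18 CPM (-1.49, SE 0.14, adjusted p = 7e-05), in contrast with FARSA. TARS2, for threonine, fell from 73.2 and 78.5 CPM to 45.7 CPM in both starved libraries (-0.73, SE 0.14, adjusted p = 0.0025). VARS2, for valine, was at 80.4 and 85.6 CPM in control and 62.6 and 63.5 CPM in starved cells and was not called (-0.40, SE 0.20, adjusted p = 0.11). Leaving out either ρ0 control library, which narrows the shared estimate of the spread, raised the mitochondrial genes called lower in parental cells from 3 to 5.

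MARS2 charges the mitochondrial methionine tRNA, which both starts and extends chains in that compartment, and it rose furthest among mitochondrial genes. Its level was 25.5 and 24.4 CPM in control and 72.9 and 75.6 CPM in starved parental cells (1.57, SE 0.20, adjusted p = 0.0003), or 2.97-fold higher. PARS2, for proline, went from 17.3 and 17.6 CPM to 28.6 and 25.1 CPM (0.62, SE 0.12, adjusted p = 0.0027). NARS2, for asparagine, went from 57.0 and 56.7 CPM to 85.3 and 86.5 CPM (0.60, SE 0.08, adjusted p = 0.00052). CARS2 (0.42, SE 0.10) and IARS2 (0.30, SE 0.07) also rose. The other 8 mitochondrial genes had changes between -0.40 and 0.10 and were not called.

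**Figure D2:**
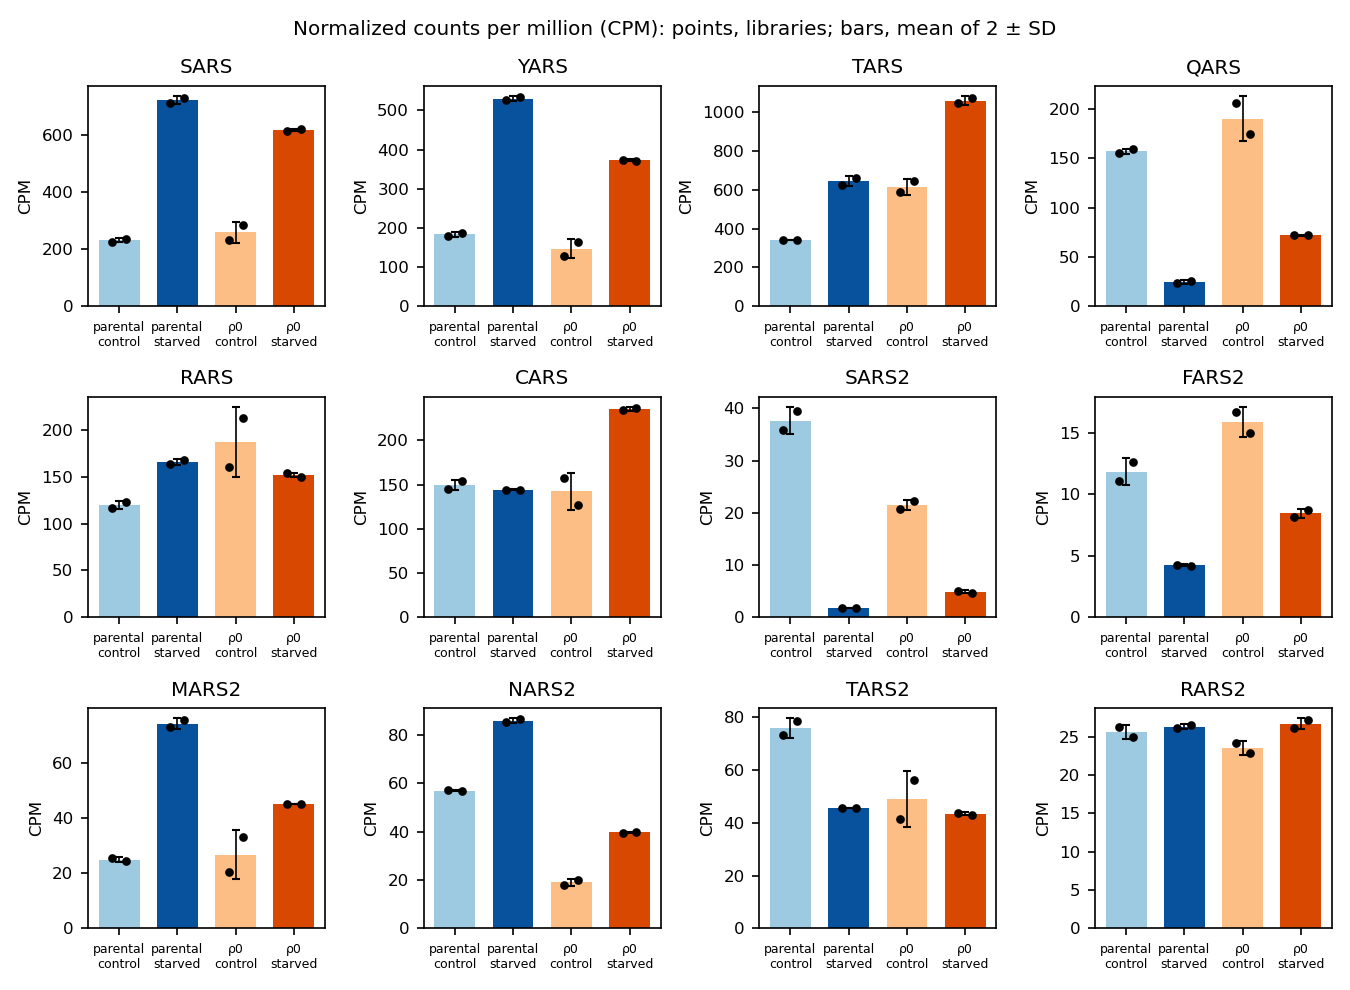
Normalised CPM (y axis, from 0) of 12 synthetase genes in the 4 groups (x axis); points are the libraries, bars the mean of 2 and whiskers the SD. SARS, YARS and TARS rise and QARS and SARS2 fall on starvation in both lines, RARS rises in parental cells, CARS rises in ρ0 cells, and the 2 ρ0 control points lie apart in RARS, MARS2 and TARS2.

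In ρ0 cells, cytosolic synthetase mRNAs again more often rose than fell. Of 20 genes, 12 rose (60.0%) and 3 fell (15.0%), against 19.2% and 22.1% of all tested genes, with a median change of 0.79 (0.72 and 0.86 without each control) against -0.02. The counts were 12 higher and 7 lower without ρ0 control replicate 1, and 16 higher and 3 lower without replicate 2. Parental and ρ0 cells shared 9 of their 12 higher cytosolic genes each (AARS, EPRS, GARS, LARS, MARS, NARS, SARS, TARS and YARS). HARS, QARS and VARS were lower in both, which is 3 of 4 in parental and 3 of 3 in ρ0 cells. The share of all tested genes called alike in both lines is not given here. These shared counts, and those of mitochondrial genes below, therefore have no background to be read against.

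YARS stood at 129.6 and 164 CPM in ρ0 control and 374 and 371 CPM in ρ0 starved cells (1.34, SE 0.12, adjusted p = 0.00024), with 1.18 and 1.53 without control replicate 1 and 2. AARS went from 187 and 216 CPM to 502 and 509.5 CPM (1.33, SE 0.09, adjusted p = 0.00013), with 1.23 and 1.45 without each control. SARS went from 233 and 285 CPM to 616 and 619.7 CPM (1.25, SE 0.11, adjusted p = 0.00023), with 1.12 and 1.42 without each. These 3 genes passed a log2 change of 1. TARS went from 587 and 645 CPM to 1045 and 1075 CPM (0.78, SE 0.08, adjusted p = 0.00048; 0.72 and 0.86 without each control). NARS had the same change as in parental cells within its error, from 119.7 and 132 CPM to 229 and 234 CPM (0.88, SE 0.08, adjusted p = 0.00027; 0.81 and 0.96 without each control).

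CARS, IARS and WARS, not called in parental cells with all libraries, rose in ρ0 cells. IARS (0.23 and 0.27) and WARS (0.21 and 0.25) were called higher in parental cells too when either ρ0 control library was left out, with adjusted p of at most 0.00014. CARS went from 157 and 127 CPM to 234 and 237 CPM (0.73, SE 0.11, adjusted p = 0.0018; 0.89 and 0.59 without each control). IARS rose by 0.94 (SE 0.10, adjusted p = 0.00044; 0.82 and 1.08 without each control) and WARS by 0.92 (SE 0.08, adjusted p = 0.00028; 1.02 and 0.85). FARSA, KARS and RARS, which rose in parental cells, were not called in ρ0 cells. RARS was at 161 and 213 CPM in ρ0 control and 153.5 and 150.1 CPM in starved cells (-0.30, SE 0.13, adjusted p = 0.097; -0.49 and -0.07 without each control). FARSA had 3108 and 5791 reads in ρ0 control and 3737 and 2996 in starved libraries, so that the starved libraries lay between the controls in CPM, and its change of -0.23 became -0.57 without control replicate 1 and 0.23 without replicate 2. KARS had the same pattern (-0.05, then -0.36 and 0.37), and the direction of both genes in ρ0 cells therefore depended on which control library was used.

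QARS fell in ρ0 cells as well, from 206 and 174 CPM to 72.3 and 71.8 CPM (-1.40, SE 0.10, adjusted p = 0.00016; -1.27 and -1.50 without each control). HARS fell from 119.7 and 161 CPM to 84.4 and 85.1 CPM (-0.73, SE 0.13, adjusted p = 0.0044; -0.93 and -0.49 without each control). VARS was already low in ρ0 control cells, at 158 and 189 CPM, and fell to 142 and 140.4 CPM (-0.30, SE 0.10, adjusted p = 0.046; -0.42 and -0.15 without each control). DARS was at 156 and 174 CPM in ρ0 control and 188 and 183 CPM in starved cells and was not called (0.17, SE 0.08, adjusted p = 0.14; 0.09 and 0.26 without each control).

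Among the 16 mitochondrial genes of ρ0 cells, 4 rose (25%) and 4 fell (25%), against 19.2% and 22.1% of all tested genes, with a median of -0.05 (-0.11 and 0.12 without each control). The counts became 6 and 8 without control replicate 1, 7 and 4 without replicate 2, and 1 and 2 without either starved ρ0 library. IARS2, MARS2, NARS2 and PARS2 rose in both lines, which is 4 of 5 in parental and 4 of 4 in ρ0 cells, with IARS2 at 0.28 (0.29 and 0.28 without each control) in ρ0 cells. NARS2 went from 18 and 20.1 CPM to 39.6 and 39.7 CPM (1.05, SE 0.09, adjusted p = 0.00022; 0.98 and 1.15 without each control). MARS2 went from 20.5 and 33.0 CPM to 45.1 and 45.0 CPM (0.75, SE 0.19, adjusted p = 0.018; 0.45 and 1.15 without each control). PARS2 went from 9.26 and 10.8 CPM to 14.0 CPM in both starved libraries (0.48, SE 0.12, adjusted p = 0.019; 0.37 and 0.61 without each control).

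SARS2 again had the largest change among the 36 members in ρ0 cells. It had 601 and 691 reads in control and 151 and 113 in starved cells, or 20.8 and 22.2 CPM against 5.10 and 4.68 CPM (-2.14, SE 0.12, adjusted p = 6.5e-05; -2.18 and -2.07 without each control), which is 4.39-fold lower. MRPS12, which shares exon bases with it, had a change of 0.09 in ρ0 cells (SE 0.18, adjusted p = 0.73; -0.19 and 0.45 without each control). FARS2 fell from 16.7 and 15.0 CPM to 8.18 and 8.70 CPM (-0.91, SE 0.13, adjusted p = 0.0016; -0.83 and -0.98 without each control). AARS2 (-0.39, SE 0.12; -0.51 and -0.23 without each control) and LARS2 (-0.39, SE 0.10; -0.50 and -0.26) fell in ρ0 cells, and TARS2 was not called (-0.17, SE 0.14; -0.38 and 0.08 without each control). RARS2 was at 24.2 and 22.9 CPM in control and 26.2 and 27.2 CPM in starved ρ0 cells (0.18, SE 0.09, adjusted p = 0.16; 0.22 and 0.15 without each control), and VARS2 was at 24.6 and 40.4 CPM and then 28.7 and 28.3 CPM (-0.19, SE 0.20, adjusted p = 0.48; -0.50 and 0.23 without each control).

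The change in ρ0 cells minus that in parental cells was then tested gene by gene. It was higher in ρ0 cells for 9 of 20 cytosolic genes (45.0%) and lower for 2 (10.0%), against 21.6% and 18.8% of all tested genes. Among the 16 mitochondrial genes it was higher for 3 (18.8%) and lower for 1 (6.25%). The median difference of the cytosolic class was 0.16, with 0.13 and 0.17 without ρ0 control replicate 1 and 2. For mitochondrial genes it was 0.06, with -0.05 and 0.01. Counts of called genes without either library are no check, because leaving it out narrows the shared estimate of the spread. Leaving out any of the 6 other libraries left 4 or 5 cytosolic genes higher and at most 1 lower. The loss of QARS and of SARS2 was smaller in ρ0 cells, by 1.26 (SE 0.14, adjusted p = 0.00095; 1.39 and 1.12 without each ρ0 control) and 2.27 (SE 0.17, adjusted p = 0.00026; 2.23 and 2.29). CARS differed by 0.78 (0.94 and 0.61 without each control), IARS by 0.71 (0.59 and 0.81) and WARS by 0.71 (0.80 and 0.60), with adjusted p between 0.0036 and 0.0064. FARSA (-1.05, SE 0.30, adjusted p = 0.029; -1.39 and -0.63 without each control) and RARS (-0.77, SE 0.18, adjusted p = 0.013; -0.96 and -0.58) had a lower change in ρ0 cells, where both stood below 0 with all libraries. Of the genes that rose most, AARS rose more in ρ0 cells (0.43, SE 0.12, adjusted p = 0.029; 0.33 and 0.51 without each control), and NARS had a difference that was not called (0.01, SE 0.11, adjusted p = 0.94; -0.05 and 0.06). SARS was not called with all libraries (-0.39, SE 0.15, adjusted p = 0.071; -0.52 and -0.26 without each control). YARS (-0.19, SE 0.16, adjusted p = 0.38; -0.35 and -0.03) and TARS (-0.13, SE 0.12, adjusted p = 0.42; -0.19 and -0.08) were not called with all libraries either.

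Between the lines, individual genes differed in both directions. In full medium, 7 of 20 cytosolic genes were higher in ρ0 than in parental cells (35.0%) and 3 lower (15.0%), against 30.5% and 31.8% of all tested genes, with a median of 0.03 (0.23 and 0.07 without ρ0 control replicate 1 and 2). Of the mitochondrial genes, 6 were higher (37.5%) and 5 lower (31.2%), with a median of 0.08 (0.23 and -0.05). Without ρ0 control replicate 1, 13 cytosolic genes were higher and 4 lower, and without replicate 2, 9 were higher and 7 lower; without parental control replicate 1 or 2, 3 or 4 were higher. NARS2 had the largest difference, at 57.0 and 56.7 CPM in parental and 18 and 20.1 CPM in ρ0 control cells (-1.57, SE 0.09, adjusted p = 7.6e-06; -1.50 and -1.60 without each ρ0 control). VARS was 2.68-fold lower in ρ0 cells (-1.42, SE 0.10, adjusted p = 2.1e-05; -1.30 and -1.51) and VARS2 2.55-fold lower (-1.35, SE 0.20, adjusted p = 0.00079; -1.04 and -1.70), so that both valine enzymes were lower. TARS was 1.80-fold higher (0.84, SE 0.08, adjusted p = 9.3e-05; 0.91 and 0.83).

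In starved cells, 10 of 20 cytosolic genes were higher in ρ0 cells (50%) and 4 lower (20%), against 32.9% and 33.5% of all tested genes, with a median of 0.25, or 0.38 without GARS and KARS. Of the mitochondrial genes, 5 were higher (31.2%) and 4 lower (25%), with a median of -0.03. No ρ0 control library enters these differences except through the estimate of the spread. QARS (1.54, SE 0.10, adjusted p = 1.5e-05) and SARS2 (1.46, SE 0.14, adjusted p = 6.7e-05) were the members with the largest excess in ρ0 cells, and WARS followed (1.04, SE 0.08, adjusted p = 3.2e-05). FARSA (-1.16, SE 0.22, adjusted p = 0.0023), VARS2 (-1.14, SE 0.20, adjusted p = 0.0017) and NARS2 (-1.12, SE 0.08, adjusted p = 2.4e-05) were lower. SARS2 was thus lower in ρ0 than in parental cells in full medium (-0.81, SE 0.11, adjusted p = 0.00044; -0.76 and -0.80 without each ρ0 control) and higher than in parental cells after starvation.

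**Figure D3:**
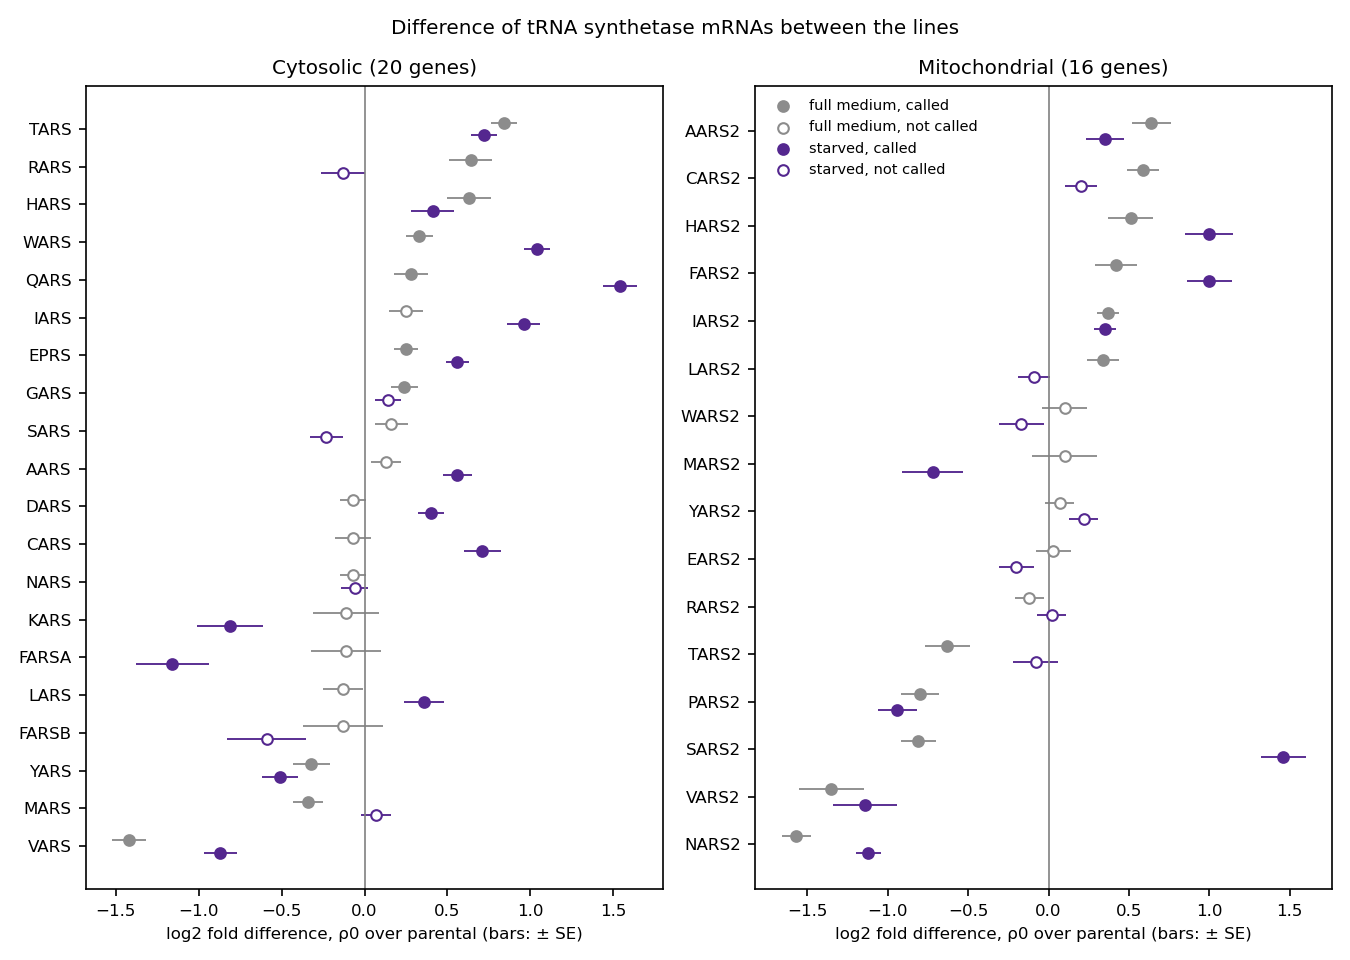
Log2 fold difference of ρ0 over parental cells (x axis) for the 36 genes (rows, ordered by the difference in full medium), grey in full medium and purple after starvation. Filled points were called and bars are ± SE; SARS2 changes side, from -0.81 to 1.46, and VARS, NARS2 and VARS2 stay below 0 in both media.

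Summed over the class, cytosolic synthetase mRNA was at 4130.4 and 4214 CPM in parental control and 6058 and 6167 CPM in parental starved libraries. In ρ0 cells it was at 4043 and 4705 CPM in control and 6965 and 6994 CPM in starved libraries. The mitochondrial sum was at 764 and 783 CPM before and 818 and 832 CPM after starvation in parental cells, and at 719 and 798 CPM and then 822 and 795 CPM in ρ0 cells. The ratio of the sums was 5.41 and 5.38 in parental control and 7.41 in both starved libraries, and in ρ0 cells it was 5.63 and 5.90 and then 8.47 and 8.79. All starved libraries lay above all control libraries in this ratio. A sum follows its most abundant members, and no test was made on it.

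**Figure D4:**
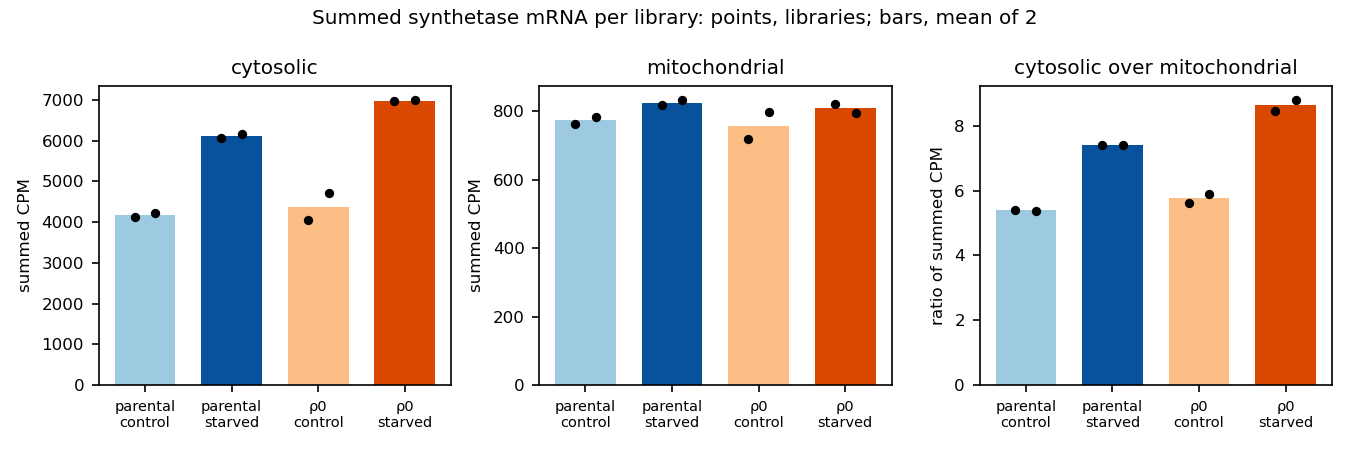
Summed CPM of the 20 cytosolic and 16 mitochondrial genes and the ratio of the 2 sums (y axes, from 0) in the 4 groups; points are libraries and bars the mean of 2. The cytosolic sum and the ratio lie higher in all 4 starved libraries than in all 4 controls, while the mitochondrial sum stays between 719 and 832 CPM.

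Pairing each mitochondrial gene with the cytosolic gene for the same amino acid gave 16 pairs, with EPRS in 2 of them. The log2 ratio of cytosolic to mitochondrial mRNA moved toward the cytosolic gene on starvation in 10 of 16 pairs in parental cells (median shift 0.32) and in 12 of 16 pairs in ρ0 cells (0.71), or in 13 and 11 of 16 without ρ0 control replicate 1 and 2. The serine pair moved by 6.05 in parental and 3.40 in ρ0 cells (3.29 and 3.49 without each control). Its log2 ratio was 2.66 and 2.58 in parental control, 8.65 and 8.69 in parental starved, 3.48 and 3.68 in ρ0 control, and 6.92 and 7.05 in ρ0 starved libraries. FARSA over FARS2 moved by 2.30 and 0.73 (the latter 0.26 and 1.21 without each ρ0 control), TARS over TARS2 by 1.64 and 0.94 (1.09 and 0.78), and YARS over YARS2 by 1.49 and 1.16 (1.02 and 1.30). The methionine pair went the other way in parental cells (-1.18) and stood at 0.01 in ρ0 cells (0.25 and -0.24 without each control), while the histidine pair moved toward HARS2 in both lines (-0.28 and -0.99, the latter -0.97 and -1.01).

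Of the 20 cytosolic enzymes, 8 belong to the multisynthetase complex, in which DARS, EPRS, IARS, KARS, LARS, MARS, QARS and RARS are held together by the scaffold proteins AIMP1, AIMP2 and EEF1E1. In parental cells 5 of these 8 rose and 2 fell (median 0.39), against 7 and 2 of the 12 other cytosolic genes (0.84), and 30.4% and 35.5% of all tested genes. In ρ0 cells 4 rose and 1 fell (0.48), against 8 and 2 of 12 (0.79), and 19.2% and 22.1% of all tested genes. Without ρ0 control replicate 1 the complex had 4 higher and 3 lower, and without replicate 2 it had 6 higher and 1 lower. With all libraries, none of the complex members passed a log2 change of 1 upward in either line, and QARS passed it downward in both. The scaffold genes AIMP1 (0.89, SE 0.14, adjusted p = 0.00096) and AIMP2 (1.38, SE 0.21, adjusted p = 0.00076) rose in parental cells, and EEF1E1 was not called (-0.11, SE 0.17). In ρ0 cells AIMP1 (0.12, SE 0.14; -0.10 and 0.38 without each control) and AIMP2 (0.54, SE 0.20; 0.22 and 0.97) were not called with all libraries. The change of AIMP2 was thus above 0 in each of these fits. EEF1E1 fell in ρ0 cells (-0.85, SE 0.18, adjusted p = 0.0077; -1.09 and -0.55).

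The wider list of 21 partners, which also holds the enzymes that amidate, formylate, edit or mature tRNAs, had 6 genes higher (28.6%) and 4 lower (19.0%) in parental cells, against 30.4% and 35.5% of all tested genes, and 4 higher (19.0%) and 4 lower (19.0%) in ρ0 cells, against 19.2% and 22.1%. The shares of higher genes lay near those of all genes. The ρ0 counts were 5 higher and 10 lower without control replicate 1, and 12 higher and 2 lower without replicate 2. GATC, a subunit of the amidase that makes mitochondrial Gln-tRNA, rose in parental cells (0.92, SE 0.12, adjusted p = 0.0003), whereas its partner subunit GATB fell in both lines (-0.72 and -0.31, with adjusted p of 0.00057 and 0.045) and QRSL1 was not called in either with all libraries (-0.06 and -0.50), its change in ρ0 cells being -0.75 without control replicate 1, where it was called, and -0.17 without replicate 2. Selenocysteine tRNA is made by PSTK and then SEPSECS. PSTK fell in both lines (-1.0 and -0.85) and SEPSECS rose in both (0.32 and 1.08, the latter 1.05 and 1.13 without each control), while PSTK (-0.38) and GATB (-0.20) were no longer called in ρ0 cells without control replicate 2. TRNT1, which adds the CCA end to tRNAs, fell in parental cells (-0.45, SE 0.11, adjusted p = 0.0085) and rose in ρ0 cells (0.79, SE 0.11, adjusted p = 0.0014; 0.85 and 0.75 without each control). PUS1, a tRNA pseudouridine synthase, rose in parental cells (1.07, SE 0.16, adjusted p = 0.0007). In ρ0 cells PUS1 (0.36, SE 0.16, adjusted p = 0.12; 0.13 and 0.65 without each control) and GATC (0.29, SE 0.12, adjusted p = 0.082; 0.12 and 0.49) were not called with all libraries.

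Of the 6 cytosolic genes whose windows were printed above, 4 rose and none fell in parental cells (AARS, MARS, NARS and TARS, with CARS and IARS not called; median 0.63), and 6 of 6 rose in ρ0 cells (median 0.84), where 30.4% and 19.2% of all tested genes rose in parental and ρ0 cells and 35.5% and 22.1% fell. Of the 10 cytosolic genes whose window held no match, 6 rose and 2 fell in parental cells (median 0.55), and 4 rose and 2 fell in ρ0 cells (median 0.01). Without each ρ0 control, 6 of 6 genes with a match were again higher (medians 0.82 and 0.94), whereas the median of the genes without a match went from -0.34 without replicate 1 to 0.49 without replicate 2. SARS, with a change above 1 in both lines, was among the windows without a match, as was QARS. YARS2, the mitochondrial gene with a match, was not called in either line with all libraries (0.04 and 0.19), and its change in ρ0 cells was 0.16 and 0.24 without each control, the latter called. MARS shares 62 exon bases (2.13%) with DDIT3 on the opposite strand, an ATF4 target that rose in both lines (1.27 and 1.86), and its part in the MARS counts was not tested.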

How the data were processed

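RNA-seq of 8 libraries was analysed, 2 per group. The authors deposited their read counts as a single table by gene symbol, with no scaling applied. Per the labels' processing notes, Bowtie and Partek were used with hg19. Versions, the annotation, the counting rule and strandedness are not given in the sources used here. Groups followed the sample titles.

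The analysis used edgeR 4.0.16 under R 4.3.3. The filter filterByExpr kept 15262 of 23393 genes, TMM factors scaled the libraries, and all 8 entered 1 quasi-likelihood model with a coefficient for each group (4 residual degrees of freedom, prior 3.4, common biological coefficient of variation 12.4%). The Benjamini-Hochberg adjustment covered all tested genes. The script was tested on simulated data with the same spread in all groups, so the uneven spread of these groups was not part of that test. CPM used TMM-normalised library sizes. CPM per kb divides by the longest protein-coding transcript in GENCODE 29. Alternatives used DESeq2 1.42.0, limma 3.58.1, other scalings and filters, a replicate block, 1 line alone, the study's fold threshold and each library left out. Exon overlaps were taken from GENCODE 29 and promoter windows from RefSeq, both on GRCh38, so no coordinate belongs to the hg19 counts.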

Additional observations from a re-analysis of the deposited data

Results flagged for a closer look

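The response to starvation differed between ρ0 and parental cells for 15 of the 36 synthetase genes in edgeR's quasi-likelihood test of the difference itself (adjusted p under 0.05), which is 41.7%, and for 40.4% of all tested genes, so that the share of the synthetases is near that of all genes. Values are the log2 change in ρ0 cells minus that in parental cells. SARS2 differed by 2.27, from -4.40 in parental to -2.14 in ρ0 cells. QARS differed by 1.26, from -2.66 in parental to -1.40 in ρ0 cells. CARS (0.78), IARS (0.71) and WARS (0.71) rose more in ρ0 cells than their change in parental cells, where they were not called with all libraries. DARS (0.46) and VARS (0.55) fell in parental cells, by 0.30 and 0.85, and stood at 0.17 and -0.30 in ρ0 cells. AARS (0.43), EPRS (0.31) and MARS (0.41) rose in both lines and more in ρ0 cells, as did NARS2 (0.46). FARS2 fell less in ρ0 cells (0.58). MARS2 rose less in ρ0 cells (-0.82), from 1.57 to 0.75. FARSA (-1.05) and RARS (-0.77) rose in parental cells and stood at -0.23 and -0.30 in ρ0 cells. Each of these 15 differences rests on the ρ0 control libraries, and each kept its sign when either of them was left out. Calls in those fits are no check, since leaving out either library narrows the shared estimate of the spread. Leaving out any of the other 6 libraries ended between 8 and 10 of the 15 calls. The groups hold 2 libraries, too few for a test of single libraries that stand far from the others.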

How the results depend on the processing

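Over the alternatives, 3132 values of single genes were recomputed. Of these, 2789 kept their side of the threshold, 131 passed it newly and 203 no longer passed it. The other 9 turned sign in genes that were called in either fit. Sign changes of genes called in neither fit are held among the 2789. All 9 arose when a ρ0 control library was left out. Without replicate 1 and without replicate 2, the change in ρ0 cells was -0.572 and 0.229 for FARSA, -0.32 and 0.602 for FARSB, -0.36 and 0.369 for KARS, and -0.502 and 0.225 for VARS2. In the same order, ρ0 over parental in full medium was -0.23 and 0.127 for CARS, 0.233 and -0.502 for FARSA, 0.255 and -0.601 for FARSB, 0.201 and -0.462 for KARS, and 0.4 and -0.234 for MARS2. The cause of the spread between these libraries was not tested.

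Counts of called genes moved by over 1.5 times as follows. With the study's fold threshold, higher and lower numbered 2 and 1 cytosolic and 1 and 2 mitochondrial genes in parental cells, 3 and 1 and 1 and 1 in ρ0 cells, 0 and 1 and 0 and 2 between the lines in full medium, and 2 and 1 and 2 and 2 after starvation. Of all 15262 tested genes, 1940 were higher and 3380 lower past that threshold in parental cells, and 644 and 1250 in ρ0 cells. Between the lines these numbers were 2074 and 2644 in full medium, and 2858 and 2557 after starvation. With limma-voom and group weights, mitochondrial genes lower in parental cells numbered 5, mitochondrial genes higher and lower in ρ0 cells 2 and 2, cytosolic genes higher between the lines in full medium 4, cytosolic genes lower after starvation 7, and cytosolic genes lower in the difference of responses 4. With 1 line alone, mitochondrial genes lower in parental cells numbered 5, and those higher and lower in ρ0 cells 1 and 2. In the difference of responses, DESeq2 called 4 cytosolic and 2 mitochondrial genes lower. The mitochondrial count there was 2 with RLE scaling or at least 10 counts in every library and 0 with upper-quartile or total-count scaling. Total-count scaling also left 4 cytosolic genes higher between the lines in full medium, where 50% of the 36 members' calls were then higher, against 61.9%. Upper-quartile scaling moved the median of all genes in parental cells from -0.07 to -0.19 and that of the cytosolic class from 0.499 to 0.38, and total counts moved the class to 0.338.

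Without 1 library at a time, parental cells had 8 to 15 cytosolic genes higher and 2 to 4 lower, and 3 to 5 mitochondrial genes lower. In ρ0 cells, 2 to 7 cytosolic genes were lower, and 1 to 7 mitochondrial genes were higher and 2 to 8 lower. Between the lines in full medium, 3 to 13 cytosolic genes were higher and 1 to 7 lower, and 3 to 9 mitochondrial genes were higher. After starvation, 3 to 7 cytosolic genes were lower. In the difference of responses, 4 to 10 cytosolic genes were higher and 0 to 9 lower, and 1 to 6 mitochondrial genes were higher and 0 to 6 lower. Where a group was left with 1 library, that library was assumed to vary like the other groups. Without a ρ0 control library more of all tested genes were called, so the upper ends of these ranges are not particular to the synthetases.

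Libraries with the same replicate number did not deviate together (correlations of -0.053 to 0.039), so the numbers pair nothing, and a fit with a replicate block left 0 mitochondrial genes lower in the difference of responses, against 1, and changed no other count by over 1.5 times. Each library held 25259503 or more counts, and SARS2, with 45 and 50 reads in starved parental cells, had the lowest counts of the 36 genes. Whether depth limited the calls was not tested.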

Other observations

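Levels were compared between genes per length, as CPM per kb of the longest protein-coding transcript. In parental control cells, SARS (123.1), GARS (114.3) and VARS (108.2) had the highest levels of the 36 genes. Cytosolic genes had a median of 58.0 CPM per kb (25.9 to 123.1) and mitochondrial genes a median of 13.8 (4.85 to 52.2), and IARS2 (52.2) was the mitochondrial gene with the highest level. AARS2, at 4.85, was the lowest. After starvation of parental cells the cytosolic median was 77.9 and the mitochondrial median 12.9, with SARS (383.9) highest and SARS2 (0.864) lowest. QARS went from rank 13 to rank 33 of 36 in parental cells and VARS from rank 3 to rank 15, while YARS went from rank 11 to rank 3. In ρ0 cells the cytosolic median was 58.1 in control and 87.8 in starved cells and the mitochondrial median 10.4 and 12.4. These levels depend on the transcript taken as the length of each gene.

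Across the 36 genes, the change on starvation had a Spearman correlation with the GC content of the transcript of -0.27 in parental and -0.29 in ρ0 cells, against -0.15 and -0.09 across 13563 tested genes. The genes share libraries and are not independent, and no test was made.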
